A study of Mus musculus with 51 samples.

Results

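The liver and the jejunum of the same sham-operated mice were compared gene by gene, with 4 sham liver libraries set against 4 sham jejunum libraries from the same 4 animals (8 of the 51 libraries of the series). The libraries were chosen by surgery, tissue and animal code alone, with no measured value. The fifth sham jejunum library came from an animal without a liver library and was used only in an alternative fit. The animals carried the codes W11, W14, W15 and W3, and sets of values below are given in that order. A total of 8918 genes were listed in both tables and entered the test, out of 12388 listed in either one, while 1367 genes were listed for liver only and 2103 for jejunum only.

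The series compared bypass (Roux-en-Y, RYGB) with sham-operated mice, 9 weeks after the operation. All sham mice were male C57Bl6 animals made obese on a high fat diet, with no transgene or deletion named in the labels and no age given. After the operation they received an elemental liquid diet, were later brought back to the high fat diet, and were held to the weight of the bypass group by food restriction, so the shams are a weight-matched model and not freely feeding obese mice. Tissue was collected in the morning after an overnight fast, and the jejunal sample was scraped villi loosened in EDTA, which leaves out most of the wall beneath the epithelium, whereas the liver sample was not described as separated into cell types.

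Liver and jejunum are the main organs of mammals that build lipoproteins around apolipoprotein B and release them, the liver as very-low-density lipoprotein and the enterocyte as chylomicrons. Both need the microsomal triglyceride transfer protein to lipidate apolipoprotein B. The enterocyte classically rebuilds triglyceride from absorbed monoacylglycerol, the hepatocyte mainly from glycerol phosphate and fatty acids that reach it from adipose tissue during a fast.

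Marker genes were checked against the tissue labels. The 15 hepatocyte markers were all listed for liver, where they summed to 59250.0 to 68020.0 CPM (read counts scaled to the library total), and 5 of them were listed for jejunum, at a sum of 186 to 461 CPM. The 15 enterocyte markers were all listed for jejunum, at 57580.0 to 81370.0 CPM, and 6 of them were listed for liver, at 186 to 519.5 CPM. In bulk tissue of this kind, fewer cells of a type and less RNA per cell cannot be told apart.

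The liver libraries stood apart in the base composition of what they measured. Across the 8900 tested genes with a transcript sequence, the rank correlation of the log2 level with transcript GC content was -0.493 to -0.553 in the 4 liver libraries and -0.0370 to -0.0904 in the 5 jejunum libraries. It is a correlation across genes within 1 library, and genes are not independent replicates. The median liver minus jejunum difference went from 0.86 in the quintile of genes with the lowest GC content to -2.23 in the quintile with the highest, on the log2 scale. The liver libraries also fell into pairs: W11 and W14 correlated at 0.976, W15 and W3 at 0.965, and the pairs with each other at 0.917 to 0.941, against 0.960 to 0.990 among the jejunum libraries. The authors' CPM values do not give the depth of most libraries. The steps between low values imply 4815000 to 4825000 reads for the W11 liver library and 4215000 to 4225000 for W14, which is shallow, so low values in these 2 libraries are coarse. A second fit, chosen after seeing the data, removed the trend with GC content from every library, and its values are given below as GC-adjusted differences. The part of GC content in each result was not tested.

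**Figure D1:**
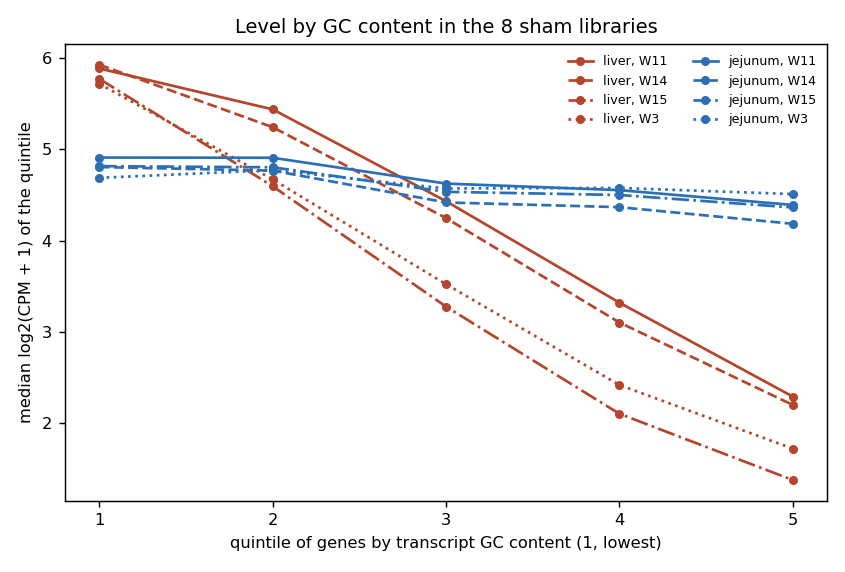
Median log2(CPM + 1) of the tested genes in each quintile of transcript GC content (x axis, lowest to highest), 1 line per library for sham liver (red) and sham jejunum (blue). The jejunum lines are nearly level, while every liver line descends, and the liver lines of W15 and W3 lie below those of W11 and W14 in the upper 4 quintiles.

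Most genes differed between the organs. Of the 8918 genes, 2306 (25.9%) were higher in liver and 3745 (42.0%) higher in jejunum (limma with the animal as a block, Benjamini-Hochberg adjusted p below 0.05), 67.9% of the genes in all. Because nearly everything differs at some size, the calls below are those of limma's test against a 2-fold difference, and they took in 1097 genes (12.3%) more than 2-fold higher in liver and 2410 (27.0%) more than 2-fold higher in jejunum, 39.3% in all. The median difference over all tested genes was -0.45 (liver minus jejunum), so the background itself lies on the jejunal side. Scaling by median-of-ratios moved that median by 0.37 to -0.07 and the liver share of the 2-fold calls from 31.3% to 41.3%. With the GC trend removed, 706 genes (7.93%) were more than 2-fold higher in liver and 2257 (25.4%) in jejunum. The median over all genes was then -0.82, so the background of the GC-adjusted differences lies further on the jejunal side. The values of the 2 organs did not overlap for 5784 of the 8918 genes (64.9%). Of the 1097 liver calls, 527 (48%) were also called in liver after GC adjustment, as were 1709 of the 2410 jejunum calls (70.9%), and none was called in the opposite direction. With 4 pairs an exact permutation test of 1 gene has a smallest two-sided p of 0.13, so single-gene calls rest on the model across all genes. Below, a gene said to be higher in 1 organ passed limma's test against 2-fold unless the sentence says otherwise, and shares of a list are read against the 12.3% and 27.0% of all genes. For genes at a few CPM, the added 1 makes a log2 difference smaller than that of the CPM values themselves.

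**Figure D2:**
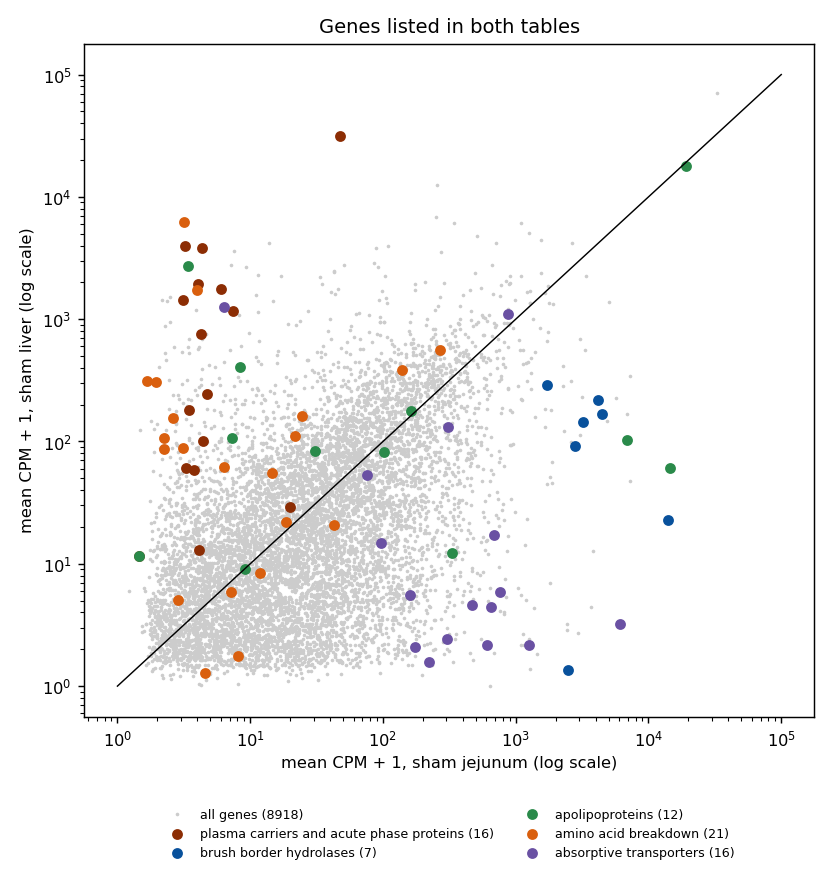
Mean CPM + 1 of every gene listed in both tables, in sham jejunum (x axis, log scale) and sham liver (y axis, log scale), over 4 animals; coloured points are members of 5 gene lists and the line marks equal levels. The 16 plasma carrier genes lie above the line and the 7 brush border genes below it, while the apolipoprotein genes lie on both sides, with Apob on the line near the upper right corner.

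The gene with the largest share of reads was the same in both organs. Sepp1, which encodes the selenium carrier selenoprotein P, stood at 55289, 47138, 99284 and 78349 CPM in liver and at 26223, 41946, 32118 and 30303 CPM in jejunum. The groups did not overlap, the difference was 1.06 ± 0.30 (SE), and it did not pass the test against 2-fold (adjusted p = 0.71). After GC adjustment the difference was -0.09. Shares of reads grow with transcript length, so they do not rank transcripts by number.

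Apob, which encodes the structural protein of both very-low-density lipoprotein and chylomicrons, was the next most abundant gene in jejunum and the third in liver. Its levels were 19929, 20976, 14662 and 16134 CPM in liver and 15772, 13854, 22694 and 23942 CPM in jejunum. The 2 sets overlapped, and the difference was -0.07 ± 0.29 with an adjusted p of 0.85 for any difference. The GC-adjusted difference was -1.60 (adjusted p = 0.0031 for any difference), toward jejunum.

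The exchangeable apolipoproteins, which move between particle surfaces, divided between the organs. Of the 12 apolipoprotein and related genes tested, 4 were more than 2-fold higher in liver, 3 in jejunum and 5 passed in neither direction (33.3% and 25.0%), with a median of 0.02 beside -0.45 over all genes, and the counts of 4 and 3 were the same after GC adjustment. Apoa4, an apolipoprotein of chylomicrons linked to fat absorption, was at 79.8, 126, 8.2 and 24.5 CPM in liver and at 10313, 10907, 12288 and 24342 CPM in jejunum. Every jejunal value was above every liver value, the mean was 243-fold higher in jejunum, and the log2 difference was -8.43 ± 0.62 (adjusted p against 2-fold = 1.3e-05). Apoa1, the main protein of high-density lipoprotein, was at 175, 151, 27.1 and 55.6 CPM in liver and 6591, 3661, 6162 and 10961 CPM in jejunum, a 66.9-fold difference of means toward jejunum (log2 difference -6.30, GC-adjusted -5.13). The liver values of both genes were lower in W15 and W3 than in W11 and W14. Apoc2, the activator of lipoprotein lipase, was 29.5-fold higher in jejunum, with 7.1, 18.9, 8.4 and 10.5 CPM in liver and 247, 218, 224 and 637 CPM in jejunum.

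In the other direction stood Apoe, the ligand that clears remnant particles, and Apoh, a phospholipid-binding plasma protein. Apoe was at 641, 377, 274 and 329 CPM in liver and at 3.4, 0.8, 8.9 and 16.2 CPM in jejunum, 55.3-fold higher in liver by means. Apoh was at 2334, 2868, 2199 and 3397 CPM in liver and at 2.0, 0.2, 0.9 and 6.5 CPM in jejunum, a log2 difference of 9.96 ± 0.37. Apoa2, the second protein of high-density lipoprotein, was at 153, 193, 24.2 and 51.8 CPM in liver and 10.4, 1.5, 2.3 and 11.2 CPM in jejunum, with all liver values above all jejunal ones (log2 difference 3.77 ± 0.60). The fourth call in liver was Saa1, an acute phase apolipoprotein, at a mean of 10.6 CPM in liver and 0.45 CPM in jejunum (adjusted p = 0.06 without W11 and W14). Apoc3, an inhibitor of triglyceride clearance, was near equal, at 125, 127, 174 and 275 CPM in liver and 196, 106, 159 and 187 CPM in jejunum. Its difference of 0.07 ± 0.25 had an adjusted p of 0.81 for any difference, and the GC-adjusted value was 1.31 (adjusted p = 0.002). A further 8 members were listed for liver only, among them Apof at 582 ± 305 CPM, Apoc1 at 151 ± 47.3 CPM and Apoa5 at 143 ± 94.6 CPM (mean ± SD, n = 4), and none for jejunum only. Together the members took 2.29% ± 0.379 (SD, n = 4) of the listed CPM in liver and 4.15% ± 1.41 in jejunum.

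Apolipoprotein genes that lie side by side differed in direction. In the cluster on chromosome 9 (GRCm38, GENCODE vM21), Apoa1 (46228580 to 46230466), Apoc3 (46232933 to 46235636), Apoa4 (46240696 to 46243459) and Apoa5 (46268633 to 46271919) follow each other, and their differences were -6.30, 0.07 and -8.43 for the first 3, while Apoa5, an activator of triglyceride clearance, was listed for liver only. In the cluster on chromosome 7, Apoe (19696109 to 19699188) was 5.99, Apoc1 (19689481 to 19692660) and Apoc4 (19678083 to 19681479) were listed for liver only, and Apoc2 (19671579 to 19677941) was -4.69. So each cluster held genes higher in liver, or listed for liver only, beside genes higher in jejunum. Apob lies on chromosome 12 (7977648 to 8016835).

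**Figure D3:**
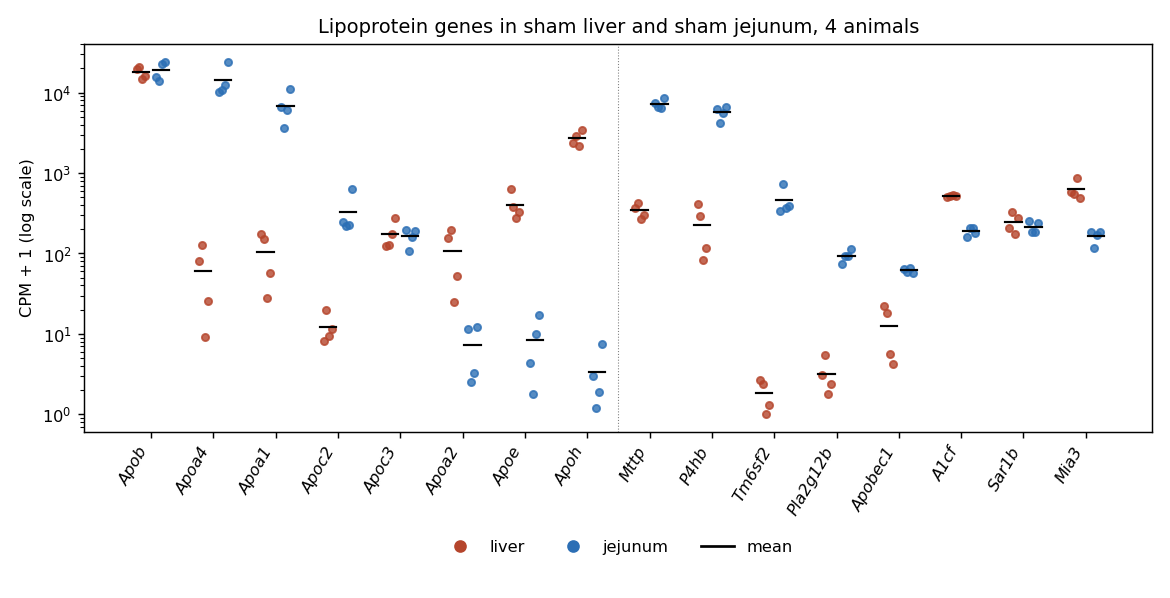
CPM + 1 (log scale) of 8 apolipoprotein genes (left of the dotted line) and 8 genes of lipoprotein assembly, editing and export (right) in sham liver (red) and sham jejunum (blue), 1 point per animal with the mean as a bar. Apob, Apoc3 and Sar1b overlap between the organs, and the other 13 genes do not.

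The machinery that loads lipid onto apolipoprotein B leaned to jejunum. Of 32 tested genes of assembly, export and editing, 13 were more than 2-fold higher in jejunum and 2 in liver (40.6% and 6.25%, and 11 and 0 genes after GC adjustment), with a median of -0.95. Mttp, the large subunit of the triglyceride transfer protein, was at 369, 428, 269.6 and 300.2 CPM in liver and 7499, 6624, 6475 and 8508 CPM in jejunum. It was 21.3-fold higher in jejunum by means, with a log2 difference of -4.42 ± 0.23 (adjusted p against 2-fold = 3.3e-06). Its partner subunit P4hb, a protein disulfide isomerase with many other clients, was at 406, 292, 82.1 and 116 CPM in liver and 6315, 4230.2, 5571 and 6603 CPM in jejunum. Its difference was -4.92 ± 0.40, and the liver values of W15 and W3 were below those of W11 and W14 for both subunits. Apob itself was near equal as deposited, while the subunits of its lipid loader were 21.3-fold and 25.4-fold higher in jejunum by means.

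Tm6sf2 and Pla2g12b were at a few CPM or less in liver. Tm6sf2, a membrane protein needed for full lipidation of the particle, was at 1.7, 1.4, 0 and 0.3 CPM in liver and 336, 733, 365 and 387 CPM in jejunum. Pla2g12b, a catalytically inactive phospholipase relative with a role in lipoprotein loading, was at 2.1, 4.5, 0.8 and 1.4 CPM in liver and 73.5, 92.6, 93.3 and 113 CPM in jejunum. Neither overlapped between the organs, and the differences were -7.99 ± 0.34 and -4.99 ± 0.37. Apobec1, the deaminase that edits the Apob transcript and so shortens its protein, was at 21.4, 17.0, 4.7 and 3.2 CPM in liver and 63.6, 58.6, 65.5 and 56.0 CPM in jejunum, while its RNA-binding cofactor A1cf was at 502, 524, 529.8 and 523 CPM in liver and 161, 207, 206 and 179 CPM in jejunum. The editing enzyme was thus more than 2-fold higher in jejunum (log2 difference -2.64 ± 0.44), and the cofactor was higher in liver without passing the test against 2-fold (1.47 ± 0.20, adjusted p = 0.056). Without W15 and W3 the difference of Apobec1 was -1.63 and no longer passed (adjusted p = 0.064), and under median-of-ratios scaling A1cf passed (adjusted p = 0.018). After GC adjustment the difference of A1cf was 0.24 and no longer passed limma's test for any difference (adjusted p = 0.41). The 2 calls in liver were Mia3 and Dnajc3, a chaperone, and neither was called after GC adjustment. Mia3, which helps pack bulky cargo into export vesicles, averaged 626 CPM in liver and 162 CPM in jejunum, and Sar1b, the small GTPase of that coat, 245 and 215 CPM, with overlap.

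The sequences upstream of 5 of these genes are shown because the factors discussed further below, Hnf4a, Hnf4g, Cdx1 and Cdx2, bind short motifs that can be looked for there. They were chosen with the matches known: Apob and Fabp1 as genes near equal in both organs, Fabp2, Apoa4 and the brush border hydrolase gene Treh as genes high in jejunum. Each run is the 250 bases before the start site from RefSeq (GRCm38.p6), 5′ to 3′ on the strand of the gene, with capitals on matches of either strand to CAAAGTNCA, a hepatocyte nuclear factor 4 motif, or TTTATNG, a caudal-type homeobox motif.
Apob, chr12:7977427-7977676, plus strand: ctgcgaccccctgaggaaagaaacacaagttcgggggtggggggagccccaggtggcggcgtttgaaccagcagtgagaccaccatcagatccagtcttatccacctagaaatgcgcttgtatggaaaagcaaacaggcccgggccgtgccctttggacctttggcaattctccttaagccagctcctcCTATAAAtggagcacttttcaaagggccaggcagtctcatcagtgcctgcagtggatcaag
Fabp1, chr6:71199629-71199878, plus strand: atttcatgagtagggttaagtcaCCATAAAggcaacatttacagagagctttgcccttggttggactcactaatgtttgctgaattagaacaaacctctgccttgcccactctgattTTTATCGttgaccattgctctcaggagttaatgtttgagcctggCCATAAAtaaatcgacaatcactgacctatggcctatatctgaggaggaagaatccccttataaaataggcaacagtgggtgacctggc
Fabp2, chr3:122894822-122895071, plus strand: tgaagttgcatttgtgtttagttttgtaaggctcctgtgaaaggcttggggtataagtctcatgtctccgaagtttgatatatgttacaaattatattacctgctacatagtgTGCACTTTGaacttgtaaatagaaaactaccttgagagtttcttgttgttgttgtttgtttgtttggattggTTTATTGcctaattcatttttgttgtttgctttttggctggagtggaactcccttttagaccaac
Apoa4, chr9:46240594-46240843, plus strand: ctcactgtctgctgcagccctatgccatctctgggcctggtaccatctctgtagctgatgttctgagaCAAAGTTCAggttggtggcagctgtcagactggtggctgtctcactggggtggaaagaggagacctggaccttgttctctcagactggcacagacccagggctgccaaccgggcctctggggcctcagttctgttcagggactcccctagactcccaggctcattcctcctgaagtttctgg
Treh, chr9:44672983-44673232, plus strand: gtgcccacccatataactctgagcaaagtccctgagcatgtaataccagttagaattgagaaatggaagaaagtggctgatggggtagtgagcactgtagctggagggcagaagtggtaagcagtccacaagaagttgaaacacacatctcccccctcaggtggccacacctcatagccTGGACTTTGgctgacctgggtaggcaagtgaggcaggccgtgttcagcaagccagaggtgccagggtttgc
The first motif matched in Fabp2, Apoa4 and Treh, and the second in Apob, in Fabp2 and at 3 places in Fabp1. The match in Apob overlaps the letters TATAAA. In Apob, Fabp1 and Apoa4 the run extends past the GENCODE gene start, so part of it lies inside the gene as GENCODE places it. Among all 27025 promoters of the same length, 1.4% held the first motif and 11.3% the second. Among the tested genes with a promoter the shares were 1.28% and 7.47%. Among genes more than 2-fold higher in liver they were 1.09% and 7.99%, and among genes more than 2-fold higher in jejunum 1.82% and 7.96%. Genes listed for liver only held them at 2.94% and 12.4%, and genes listed for jejunum only at 1.67% and 8.09%, so neither motif was more frequent on the jejunal side throughout. A match of letters is a description and not a binding site.

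Triglyceride synthesis differed in its enzymes. Mogat2, the intestinal monoacylglycerol acyltransferase, was listed for jejunum only, at 382, 629.7, 408 and 352 CPM, and Mogat1 for liver only, at 4.2, 0.9, 1.4 and 2.5 CPM. Dgat1, which adds the last acyl chain, was at 2.9, 2.8, 0.2 and 0.8 CPM in liver and 1259, 1016, 1219 and 1038 CPM in jejunum, with a log2 difference of -8.89 ± 0.35. Dgat2, which carries out the same reaction, was at 123, 148, 102 and 82.2 CPM in liver and 349, 254, 330.1 and 298 CPM in jejunum, higher in jejunum without passing the test against 2-fold (-1.45 ± 0.24, adjusted p = 0.11, and 0.044 when W14 was left out). The gap between the organs was thus 676-fold for the first enzyme and 2.71-fold for the second by means. After GC adjustment the difference of Dgat1 was -7.60. That of Dgat2 was -0.34 and no longer passed limma's test for any difference (adjusted p = 0.27). Of 7 tested genes of the monoacylglycerol pathway, 5 (71.4%) were more than 2-fold higher in jejunum, and 1 (14.3%) in liver, Mgll, the lipase that splits monoacylglycerol (67.8 against 5.65 CPM).

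In the glycerol phosphate route the organs differed in which enzyme served a step. Of 14 tested genes, 4 (28.6%) were more than 2-fold higher in liver and 6 (42.9%) in jejunum. Gpam, the mitochondrial enzyme of the first acylation, was at 224, 235, 282 and 316 CPM in liver and 3.1, 3.6, 2.4 and 2.3 CPM in jejunum, and Agpat9, an enzyme of the endoplasmic reticulum for the same step, at 45.9, 40.2, 46.1 and 35.9 CPM in liver and 451, 373, 402 and 402 CPM in jejunum. The first was 92.7-fold higher in liver and the second 9.69-fold higher in jejunum. Lpin1, a phosphatidate phosphatase, was at 69.4, 121, 285 and 222 CPM in liver and 2.3, 2.3, 2.2 and 2.5 CPM in jejunum. Among the lipid phosphate phosphatases, Ppap2b was more than 2-fold higher in liver (429 against 11.1 CPM), and Ppap2a (23.1 against 335 CPM) and Ppap2c (2.33 against 168 CPM) in jejunum.

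Lipid droplet and lipase genes had 6 calls each way among 19 (31.6% each). Toward liver these included Plin2, a droplet coat protein, at 204 against 45.7 CPM (adjusted p = 0.056 without W14 and 0.12 without W3), G0s2, the inhibitor of adipose triglyceride lipase, at 41.3 against 1.35 CPM, and the carboxylesterase Ces3a at 402 against 4.4 CPM. Toward jejunum they included the coat protein Plin3 at 4.1 against 214 CPM and Pnpla2, the adipose triglyceride lipase itself, at 2.73 against 67.0 CPM. Plin5, a coat protein of oxidative tissues, was listed for liver only, at 5.15 ± 1.97 CPM.

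Fatty acid transport and activation drew on different family members in the 2 organs. Of 17 tested genes, 5 (29.4%) were more than 2-fold higher in each organ. Among the transport proteins, Slc27a2 was at 5818, 7359.5, 4131 and 6977 CPM in liver and 1386, 816, 896 and 1293 CPM in jejunum, and Slc27a4 at 1.7, 0.9, 1.5 and 0.5 CPM in liver and 983, 987, 1144 and 1251 CPM in jejunum. Among the acyl-CoA synthetases, Acsl1 was at 1150.3, 1600.0, 1091 and 1626 CPM in liver and 101, 112, 89.5 and 121 CPM in jejunum, and Acsl5 at 209.6, 125, 28.1 and 30.8 CPM in liver and 2965, 2469.9, 2542 and 2396 CPM in jejunum. In each pair 1 gene was more than 2-fold higher in liver and the other in jejunum, and all 4 calls held after GC adjustment.

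The binding proteins and the scavenger receptor gave a different picture. Fabp2, the intestinal binding protein, was at 319.7, 179, 83.9 and 87.5 CPM in liver and 6979, 4215, 6142 and 10013 CPM in jejunum. Fabp1, called the liver binding protein, was at 683, 1438, 497 and 1087 CPM in liver and 1283, 253, 819 and 1105 CPM in jejunum, and the values overlapped (difference 0.21 ± 0.50, adjusted p = 0.72 for any difference, GC-adjusted -0.91). Its lowest jejunal value, in W14, was also the lowest of Fabp2 and of Apoa1 in that organ. Cd36, a fatty acid receptor, was at 1969, 1717, 1694 and 1142 CPM in liver and 1509.7, 2395, 1482 and 1293 CPM in jejunum, with a difference of -0.02 ± 0.23. Its transcript has a GC content of 38.7%, in the lowest quintile, and the GC-adjusted difference was -2.25 (adjusted p = 0.00013).

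Fatty acid oxidation leaned to liver. Of 38 tested genes, 13 were more than 2-fold higher in liver and 6 in jejunum (34.2% and 15.8%, and 9 and 6 genes after GC adjustment), with a median of 0.80. Cpt1a, which admits long-chain fatty acids to the mitochondrion, was at 887, 812, 644 and 634 CPM in liver and 122, 66.8, 84.3 and 105 CPM in jejunum, a difference of 2.98 ± 0.23. The microsomal omega-hydroxylase gene Cyp4a10 was at 1011, 1217, 1490.2 and 2916 CPM in liver and 54.2, 54.5, 22.9 and 26.8 CPM in jejunum, and its relative Cyp4a14 was listed for liver only, at 5201, 4334, 3972 and 10826 CPM. The members that were higher in jejunum included the short-chain and very-long-chain dehydrogenases Acads (0.825 against 48.9 CPM) and Acadvl (12.2 against 126 CPM). The mitochondrial medium-chain dehydrogenase gene Acadm (1524 against 268 CPM) and the peroxisomal bifunctional enzyme Ehhadh (2021 against 208 CPM) were higher in liver. Ketone body synthesis and use had 1 call each way among 10 tested genes (10.0% each), and the jejunum call was the transporter gene Slc16a6 (6.75 against 93.5 CPM).

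Fatty acid synthesis and desaturation had 8 liver (38.1%) and 6 jejunum calls (28.6%) among 21 tested genes. The largest differences toward liver were in desaturation and elongation: Scd1 was at 1982, 3903, 724 and 2379.9 CPM in liver and 2.8, 3.4, 4.6 and 53.9 CPM in jejunum, and Elovl5 at 2976, 2479, 3948 and 7493 CPM in liver and 16.2, 12, 10.6 and 12.2 CPM in jejunum. The differences were 7.82 ± 0.61 and 8.14 ± 0.31. The transcription factor genes of the list were higher in jejunum, with Srebf1 at 10.9 CPM in liver and 261 CPM in jejunum and Mlxipl at 6.2 and 168 CPM. Fasn and Acaca, the core enzymes, were low in both organs, at 3.7 and 6.53 CPM in liver and 6.15 and 3.33 CPM in jejunum, and neither passed the test for any difference (adjusted p = 0.19 and 0.74). The liver mean of Acaca covers 14.1 and 10.2 CPM in W11 and W14 and 0.7 and 1.1 CPM in W15 and W3.

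Sterol transport genes with the largest differences were higher in jejunum. Npc1l1, the cholesterol importer of the enterocyte, was listed for jejunum only, at 1142, 1147, 1399 and 1559 CPM. Abcg5 and Abcg8, which form the exporter of plant sterols and cholesterol, were at 63.8, 62.0, 10.2 and 14.2 and at 38.2, 34.1, 14.1 and 5.8 CPM in liver. In jejunum Abcg5 was at 748, 679, 642 and 823 and Abcg8 at 466, 548, 568 and 728 CPM, with no overlap for either gene. Both were lower in the W15 and W3 livers than in the W11 and W14 livers. Soat2, which makes cholesteryl ester for lipoproteins, was at 5.4, 2.1, 4.0 and 2.3 CPM in liver and 289, 284, 312 and 331 CPM in jejunum. Of 16 tested genes of sterol transport and esterification, 6 were more than 2-fold higher in jejunum (37.5%) and 2 in liver (12.5%), and the latter share is the background. Cholesterol synthesis had 6 calls each way among 24 tested genes (25.0% each), and 3 in liver and 4 in jejunum after GC adjustment. Hmgcs1, an early enzyme of that pathway, averaged 1492 CPM in liver and 105 CPM in jejunum.

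Plasma lipoprotein remodelling and uptake had 4 liver (25.0%) and 5 jejunum calls (31.2%) among 16. Lpl, the lipoprotein lipase, averaged 81.8 CPM in liver and 0.9 CPM in jejunum. Lrp1, a large endocytic receptor that takes up remnant particles, was higher in jejunum, at 9.9 against 345 CPM. The hepatic lipase gene Lipc and the cholesterol acyltransferase gene Lcat were listed for liver only, at 89.8 ± 47.4 and 6.08 ± 2.19 CPM.

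Bile acid genes were often listed for liver only. Of the 33 list members, 14 were listed for liver only, including Cyp7a1, the rate-limiting enzyme of bile acid synthesis, at 892, 568, 588 and 977 CPM, and Slc10a1, the hepatocyte importer, at 1892, 2884, 1083 and 1075 CPM. Over all genes, 1367 of 12388 were listed for liver only. The 13 tested members went both ways, with 5 (38.5%) more than 2-fold higher in liver and 4 (30.8%) in jejunum. After GC adjustment these counts were 5 and 2. The ileal importer Slc10a2 was higher in liver than in this jejunal sample, at 26.0, 29.6, 56.3 and 15.8 CPM in liver and 0.9, 1.2, 0.3 and 0.6 CPM in jejunum. Its difference of 4.12 ± 0.40 was 1.47 after GC adjustment and then no longer passed the test against 2-fold (adjusted p = 0.29). Slc51a, a subunit of the basolateral exporter, was listed for jejunum only, at 181 ± 20.9 CPM.

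Glycolysis and fructose genes leaned to jejunum. Of 20 tested glycolysis genes, 11 were more than 2-fold higher in jejunum and 1 in liver (55.0% and 5.0%, and 9 and 1 genes after GC adjustment), with a median of -2.23. Pyruvate kinase was present as 2 genes: Pkm was at 1.2, 0.5, 0.3 and 0.3 CPM in liver and 379, 283, 327 and 358 CPM in jejunum, and Pklr, the form named for liver, at 23.1, 25.1, 7.1 and 5.3 CPM in liver and 278, 413, 271 and 381 CPM in jejunum. Both were more than 2-fold higher in jejunum, with differences of -7.77 ± 0.30 and -4.63 ± 0.39. The liver call was Pfkfb1, the hepatic regulator of glycolysis (17.4 against 0.825 CPM). Fructose genes had 5 jejunum calls among 9, with the fructose carrier Slc2a5 at 1.45 CPM in liver and 303 CPM in jejunum and the fructokinase Khk at 11.7 and 146 CPM.

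Gluconeogenesis and glycogen genes had 7 calls each way among 22 (31.8% each). Pck1, the committed enzyme of gluconeogenesis, was at 329.9, 479, 325 and 604 CPM in liver and 306, 215, 559 and 581 CPM in jejunum (difference 0.13 ± 0.30, adjusted p = 0.71 for any difference). G6pc, which frees glucose from its phosphate, was at 97.0, 116, 13 and 41.6 CPM in liver and 81.7, 300.4, 128 and 494 CPM in jejunum. The sets overlapped, and the difference toward jejunum (-1.97 ± 0.56) did not pass the test against 2-fold (adjusted p = 0.13), but did so when W11 was left out (-2.70, adjusted p = 0.0041) and after GC adjustment (-2.65, adjusted p = 0.026). The glycogen enzyme genes Pygl and Gbe1 were higher in liver, with Pygl at 129 against 4.08 CPM and Gbe1 at 658 against 10.7 CPM. The glucose carrier Slc2a2 averaged 1102 CPM in liver and 869 CPM in jejunum, with a difference of 0.39 ± 0.32 (adjusted p = 0.3 for any difference) and a GC-adjusted one of -1.41.

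Nitrogen metabolism drew on different members of enzyme families. Arg1, the arginase of the urea cycle, was at 585, 814, 1319.6 and 818 CPM in liver and 1.3, 0.5, 0.5 and 2.9 CPM in jejunum. Arg2, the mitochondrial arginase, was at 1.2, 0.5, 0.4 and 1.2 CPM in liver and 1530.2, 1962, 1100.2 and 1186 CPM in jejunum. The 2 differences, 8.64 ± 0.38 and -9.62 ± 0.29, were of similar size and opposite sign. Glul, which makes glutamine, was at 916, 1170.1, 791 and 2762 CPM in liver and 12.1, 11.1, 11.7 and 20.9 CPM in jejunum, with a difference of 6.42 ± 0.24. The alanine transaminase genes also went opposite ways, Gpt2 at 417 CPM in liver and 3.88 CPM in jejunum, and Gpt at 2.75 and 334 CPM. These pairs were singled out with their values in view. In all, 6 of 19 urea cycle and citrulline genes (31.6%) were more than 2-fold higher in liver and 4 (21.1%) in jejunum.

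Cps1, the entry enzyme of the urea cycle, was at 6718, 6179, 23181 and 13572 CPM in liver and 429.9, 286, 170.0 and 137 CPM in jejunum, where enterocytes use it to make citrulline (difference 5.52 ± 0.50). The liver values of W15 and W3 were above those of W11 and W14. Otc, the next enzyme, averaged 561 CPM in liver and 266 CPM in jejunum, a difference of 1.09 that did not pass the test against 2-fold (adjusted p = 0.59) and was -0.96 after GC adjustment. Amino acid breakdown leaned to liver: 21 of its 44 genes were listed for liver only, led by Tdo2, the tryptophan dioxygenase, at 8571, 8948, 8988 and 9647 CPM, and 11 of 21 tested genes were more than 2-fold higher in liver against 2 in jejunum (52.4% and 9.52%, and 12 and 0 genes after GC adjustment). Cdo1, the cysteine dioxygenase, had the largest difference toward liver of the 8918 genes (10.77 ± 0.28), with 2102, 2760.4, 5682 and 14393 CPM in liver and 1.3, 0.5, 1.2 and 5.7 CPM in jejunum. Its highest value in each organ was in W3.

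**Figure D4:**
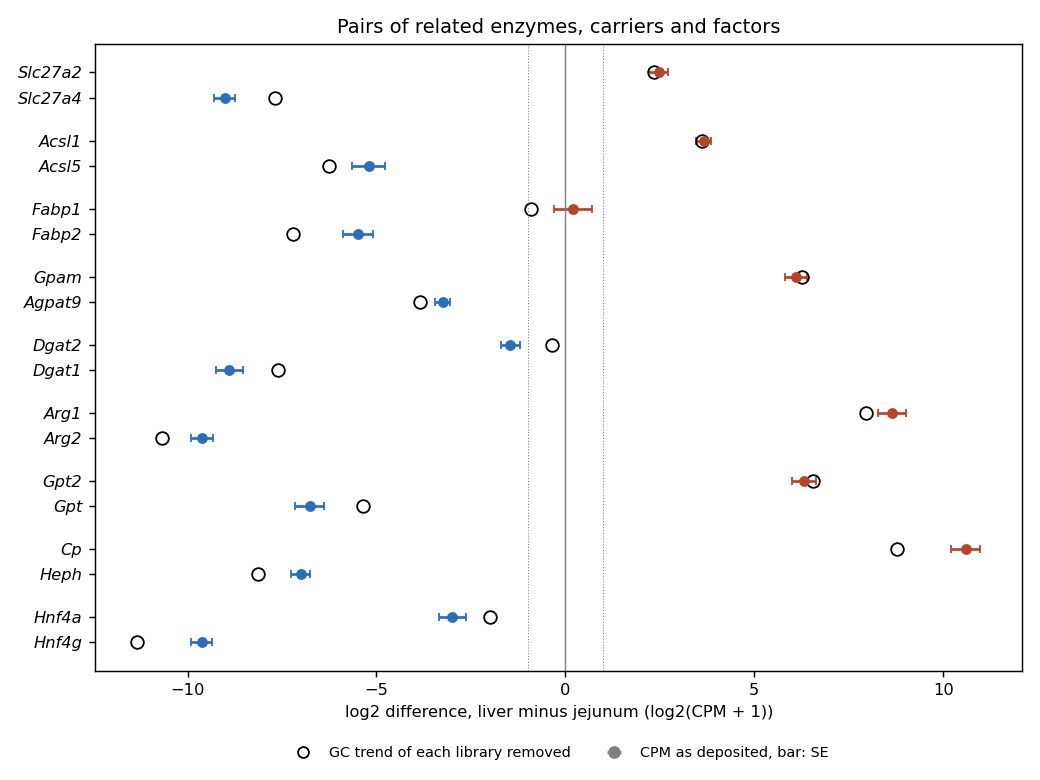
Log2 difference, liver minus jejunum, of 9 pairs of related genes (filled points, red where higher in liver and blue where higher in jejunum, bars SE over 4 animals) and the GC-adjusted difference (open circles); dotted lines mark 2-fold. In 6 pairs, among them Arg1 and Arg2, the genes lie on opposite sides of 0 in both readings. Fabp1 and Fabp2 do so only as deposited, and Dgat2 with Dgat1 and Hnf4a with Hnf4g all lie on the jejunal side.

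Among the functional lists, the secreted plasma proteins had the highest median toward liver. Of 50 carrier and acute phase genes, 32 were listed for liver only, and 14 of the 16 tested were more than 2-fold higher in liver (87.5%), with a median of 6.46 and again 14 calls after GC adjustment. Alb, the gene of serum albumin, was at 33556, 35255, 30189 and 27729 CPM in liver and 24.3, 2.2, 12.6 and 147 CPM in jejunum. Cp, the ferroxidase ceruloplasmin, was at 3738, 4328, 3434 and 4389 CPM in liver and 1.3, 0.1, 1.3 and 6.3 CPM in jejunum. The difference of Alb was 10.62 ± 0.74 and that of Cp 10.60 ± 0.39. The list took 5.85% ± 1.42 (SD, n = 4) of the listed CPM in liver, with W15 and W3 lower than W11 and W14. In jejunum it took 0.009, 0.00361, 0.00493 and 0.0266%, highest in W3 and lowest in W14, and the jejunal mean of 0.011% was 0.00585% without W3. The jejunal levels of Alb, Apoh, Cp, Hp, Gc, Mat1a and Cyp2e1 were likewise highest in W3 and lowest in W14 (Mat1a, the hepatic methionine adenosyltransferase, at 1.3, 0.2, 0.8 and 9.6 CPM). Of 17 markers of pancreatic acinar cells, 12 were listed for jejunum, at sums of 556 to 1051 CPM with the highest in W3, and 1 for liver, at 1.3 to 3.1 CPM. Nearly all of the jejunal sum was Zg16, a gene that goblet cells also express, at 711, 675, 545 and 1027 CPM, and no other of the 12 averaged more than Pnlip, the pancreatic lipase, at 3.52 ± 1.28 CPM. Whether RNA of another tissue plays a part in these low jejunal values was not tested. Coagulation genes had 18 members listed for liver only and 6 liver calls among 9 tested, and complement genes 15 and 6 of 13. The exception was Cfb, a factor of the alternative pathway, higher in jejunum at 2.38 against 12.7 CPM, a call lost when W14, W15 or W3 was left out (adjusted p = 0.062, 0.078 and 0.075) and after GC adjustment.

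The brush border stood at the jejunal end. Of 23 hydrolase genes, 14 were listed for jejunum only, led by the sucrase-isomaltase gene Sis at 11484, 8002, 10239.8 and 9219 CPM, and the 7 tested were all more than 2-fold higher in jejunum. The list took 6.5% ± 0.387 (SD, n = 4) of the listed CPM in jejunum and 0.094% ± 0.0141 in liver. Treh, the trehalase, was at 0.4, 0.5, 0 and 0.5 CPM in liver and 2197, 2657, 2451 and 2578 CPM in jejunum. With every sham liver below 1 CPM, it is listed for liver through the RYGB livers. The peptidase gene Anpep was at 29.1, 26.7, 12.8 and 18.8 CPM in liver and 14041, 15111, 14219.8 and 12915 CPM in jejunum, and Dpp4, a peptidase that cleaves incretins, at 327, 361, 263 and 195 CPM in liver and 1861, 1841, 1689.6 and 1513 CPM in jejunum. Of these 3 the contrast was widest in the disaccharidase (-10.85 ± 0.25) and narrowest in Dpp4 (-2.62 ± 0.21).

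Absorptive transporter genes were mostly jejunal. Of 36, 18 were listed for jejunum only, and of the 16 tested 12 were more than 2-fold higher in jejunum. Slc5a1, the sodium-glucose cotransporter, had the largest difference toward jejunum of the 8918 genes (-10.92 ± 0.23), at 2.7, 3.8, 1.5 and 1.0 CPM in liver and 8141, 6613, 5198 and 4419.8 CPM in jejunum. The 1 liver call was in iron export: Slc40a1, ferroportin, was at 965, 734, 1786 and 1563 CPM in liver and 5.3, 4.4, 7.0 and 4.7 CPM in jejunum, 236-fold higher in liver. Its partner ferroxidases divided, with Cp higher in liver and Heph, the membrane-bound form of the enterocyte, at 5.8, 5.4, 3.7 and 4.7 CPM in liver and 767, 601, 802 and 866 CPM in jejunum. Of 18 tested microvillus and junction genes, 15 were more than 2-fold higher in jejunum, and the 2 higher in liver were Plin2 (above), a droplet gene placed in that list, and Cldn2. Cldn2, a claudin of leaky epithelia, was at 301, 115, 85.4 and 55.4 CPM in liver and 3.1, 1.3, 1.3 and 1.3 CPM in jejunum.

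Drug-handling families were mixed. Of 19 tested cytochrome P450 genes of families 1 to 3, 9 (47.4%) were more than 2-fold higher in liver and 6 (31.6%) in jejunum, and after GC adjustment 5 and 7. Cyp3a11 averaged 4416 CPM in liver and 1539.5 CPM in jejunum, Cyp3a13 558 and 3302 CPM, and Cyp3a25 1868 and 1743 CPM. Their differences of 1.57, -2.60 and 0.09 became -0.34, -4.31 and -1.70 after GC adjustment. The call of Cyp3a11 was lost when W11, W15 or W3 was left out (adjusted p = 0.1, 0.25 and 0.075). Cyp2b10 was listed at 0 in all 4 sham liver libraries and was at 546, 904, 531 and 554 CPM in jejunum. With no sham liver at 1 CPM, it is listed for liver through the RYGB livers. Some members of these families are similar in sequence, so the counts of such members may be uncertain, which was not tested.

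Conjugating enzymes had 6 liver (19.4%) and 9 jejunum calls (29.0%) among 31 tested, the latter share close to the 27.0% of all genes. The sulfotransferase Sult1b1 was at 180.4 against 904 CPM and the glucuronosyltransferase Ugt2b36 at 2228 against 32.5 CPM.

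Among transcription factors the nuclear receptor Hnf4g stood out. It was at 1.2, 2.1, 2.4 and 1.9 CPM in liver and 2289, 3788, 2329 and 1311 CPM in jejunum, the largest absolute difference among the 36 factors tested (-9.63 ± 0.29). Hnf4a, its relative and a regulator in both organs, was at 64.0, 117, 23.7 and 57.0 CPM in liver and 365, 481, 523 and 479 CPM in jejunum, more than 2-fold higher in jejunum (-3.00 ± 0.36, GC-adjusted -1.99). Cdx1 and Cdx2, the homeobox factors of intestinal identity, were listed for jejunum only, at 32.6 ± 2.38 and 114 ± 16.1 CPM. On the liver side, Prox1, a factor of hepatocyte and lymphatic development, was at 711, 654, 746 and 617 CPM in liver and 3.6, 2.3, 2.9 and 4.4 CPM in jejunum, and Nr5a2, a regulator of bile acid genes, averaged 238 against 11.3 CPM. Foxa2, a pioneer factor of both endoderm lineages, averaged 21.0 against 0.9 CPM. In all, 8 of the 36 (22.2%) were more than 2-fold higher in liver and 14 (38.9%) in jejunum.

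Genes known to respond to fasting and glucocorticoids were not higher in 1 organ throughout. Of 21 tested, 11 (52.4%) were more than 2-fold higher in jejunum and 5 (23.8%) in liver. Pdk4, the kinase that shuts down pyruvate oxidation, was at 28.5, 27.7, 13.9 and 19.6 CPM in liver and 104, 246, 183 and 291 CPM in jejunum, and Sgk1, a glucocorticoid-induced kinase, at 16.2, 19.4, 7.2 and 14.2 CPM in liver and 483, 645, 709.5 and 540.4 CPM in jejunum. Both were higher in jejunum in every animal, with differences of -3.10 ± 0.35 and -5.35 ± 0.30. On the liver side, Klf15, a fasting-induced factor, averaged 44.2 against 4.88 CPM, and the hormone gene Fgf21 was listed for liver only, at 3.7, 4.3, 6.3 and 11.9 CPM. Creb3l3, a membrane-bound factor of hepatocytes and enterocytes that drives Fgf21, was higher in jejunum, at 32.7 against 731 CPM. Of 15 genes of the circadian cycle, 2 were more than 2-fold higher in liver and 3 in jejunum (13.3% and 20.0%, with a median of -1.43), and by the test for any difference 3 and 11. Rora was among the former, at 315 against 2.35 CPM, and Nr1d1, a repressor of the clock, among the latter, at 3.65 against 76.5 CPM. Of the hormone receptor genes, Ghr for growth hormone was higher in liver, at 1950.5 against 33.8 CPM, and Insr, the insulin receptor, averaged 383 and 324 CPM, with no call (adjusted p = 0.41 for any difference).

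Respiratory chain genes leaned to jejunum. Of 45 respiratory chain and ATP synthase genes, 21 (46.7%) were more than 2-fold higher in jejunum and 0 in liver, and after GC adjustment 14 and 0. By limma's test for any difference, 4 of the 45 were higher in liver, and 1 had an unadjusted p below 0.05 for more than 2-fold. Of 40 secretory pathway genes 15 (37.5%) were more than 2-fold higher in jejunum and 6 (15%) in liver, and after GC adjustment 14 and 0. Of 32 proteasome genes 9 (28.1%) and 3 (9.38%) were called, close to the shares of all genes, and 5 and 1 after GC adjustment. Without the W15 and W3 animals the secretory counts were 11 and 1 and the proteasome counts 5 and 5. Without W11 and W14 they were 19 and 6 and 13 and 2. Cytosolic ribosomal protein genes summed to 0.0798% of the listed CPM in liver and 0.0832% in jejunum, and 14 of the 75 were in neither table. These genes have many near-identical pseudogene copies, which makes their counts, like those of Gapdh and Rplp0, uncertain.

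**Figure D5:**
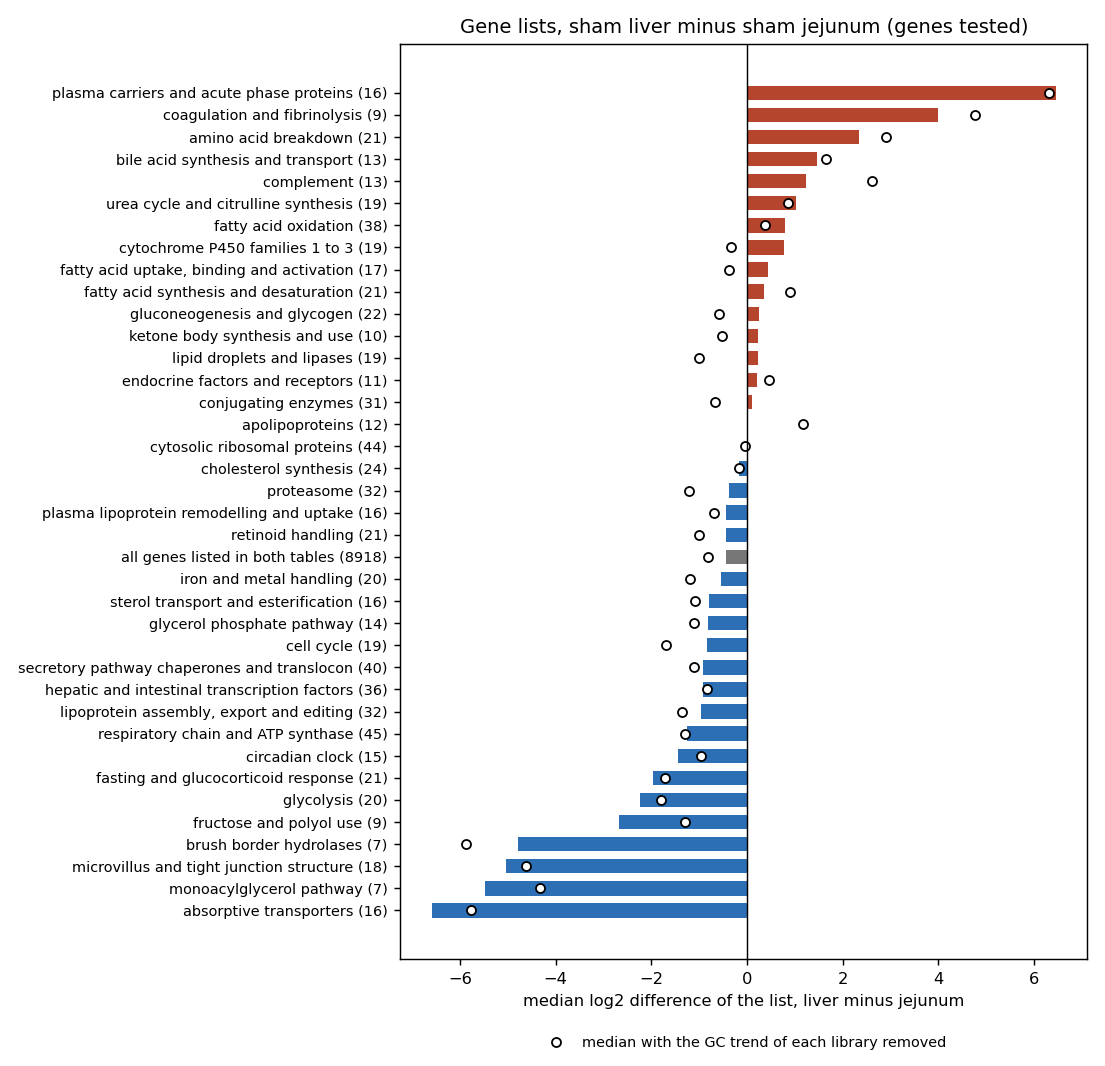
Median log2 difference, liver minus jejunum, of each gene list with at least 7 tested members (bars; the number tested is in brackets, grey for all genes) and the same median with the GC trend removed (open circles). The lists run from absorptive transporters at -6.59 to plasma carriers at 6.46, and 7 lists with a small positive median have a negative one after GC adjustment. The median of all genes moves from -0.45 to -0.82.

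A set of abundant genes did not separate the organs as deposited. The rule for near-equal genes took those with an absolute difference under 0.25 and ranked them by the lower of the 2 means. After Apob, the order was Cyp3a25, Cd36, Ugt2b34, Lpgat1, Glud1, Ptbp3 and Fabp1. Glud1, the glutamate dehydrogenase, averaged 932 ± 508 CPM in liver and 910.0 ± 105 CPM in jejunum (SD, n = 4), and Lpgat1, a lysophospholipid acyltransferase, 1349 ± 285 and 1278 ± 222 CPM. After GC adjustment the 2 differences were -0.85 and -0.31. A value near 0 does not show that the levels are the same, and the direction of these genes depends on how the libraries are scaled.

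Markers of other cell types differed between the samples. All 13 enteroendocrine markers were listed for jejunum only, at sums of 226 to 469 CPM, and 7 Paneth cell markers likewise, at 74.7 to 709 CPM. Markers of T and natural killer cells summed to 162 to 584 CPM in jejunum, with 11 of the 12 listed there absent from the liver table, and 14 macrophage markers were listed for liver at 66.6 to 263 CPM against 6 for jejunum at 6.9 to 81.7 CPM in jejunum. Smooth muscle markers were nearly absent, with 2 of 7 listed for jejunum at a sum of 3.0 to 9.7 CPM and none for liver. Stellate and fibroblast markers summed to 950.2 to 1299 CPM in liver, mostly Dcn at a mean of 754 CPM, and to 81.5 to 109.5 CPM in jejunum. Markers of crypt stem cells went both ways. Of 6 tested, 2 were more than 2-fold higher in liver (33.3%) and 1 in jejunum (16.7%), and 1 more was listed for jejunum only. Lgr5, a marker of this list that pericentral hepatocytes also express, was at 21.4, 30.5, 10.7 and 30.3 CPM in liver and 1.3, 0.9, 1.8 and 2.3 CPM in jejunum, sampled as scraped villi. The part of these cells in the differences above was not tested.

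The same measure was taken in 4 RYGB animals that gave both organs, of the same strain and diets and after the same fast, none of which entered the sham fit. In these animals, 894 genes (10.0%) were more than 2-fold higher in liver and 1827 genes (20.5%) in jejunum. Of the 1097 sham liver calls, 709 were also called in the RYGB animals (64.6% of the sham calls and 79.3% of the RYGB calls), and of the 2410 sham jejunum calls 1670 (69.3% and 91.4%). None was called in the opposite direction. The difference of Apob was -0.02 in RYGB animals beside -0.07 in shams, that of Mttp -4.27 beside -4.42, and that of Apoa4 -9.36 beside -8.43. Other sham calls did not recur: Pdk4 was at 0.53 in RYGB animals beside -3.10 in shams, and Ehhadh at 0.08 beside 2.84. In the RYGB animals neither passed limma's test for any difference (adjusted p = 0.52 and 0.91). Pck1 and Fabp1, near equal in shams, were at 4.48 and -3.00 in RYGB animals, where Pck1 ran from 5.1 to 429 CPM in jejunum and 498 to 874 CPM in liver, and Fabp1 from 1068 to 4019 and from 42.1 to 998 CPM. Whether any of these differs between the operations was not tested here.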

How the data were processed

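RNA from liver pieces and from scraped jejunal villi was sequenced by the authors. Reads were counted per gene with HTSeq on GRCm38, per the submitters' processing notes; no source used here gives the aligner, annotation release or strand setting. The deposited values are CPM (read counts scaled to the library total) with 1 decimal, 1 table per tissue, and every listed gene has at least 1 CPM in at least 4 of the 9 libraries of its tissue. The RYGB libraries count toward this, so a gene low in all sham libraries can still be listed. Columns of the deposited CPM tables were matched to animals by the codes in the labels, and no column was left unmatched. Of the liver data, 6 lines without an identifier were left out.

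The 8918 genes in both tables were fitted on log2(CPM + 1) with limma 3.58.1 (R 4.3.3), with the animal as a block and the trend and robust options, for any difference and against 2-fold, with Benjamini-Hochberg adjustment over all genes. The tables were normalized separately by the authors, so a level set across them rests on CPM alone. Depth is unknown for 6 of the 8 libraries, so no count test was made and depth gives no interval. The script was tested on simulated data. Libraries of the 2 organs were paired by animal code and not by library number, which differs between the organs for most animals. Deviations from the group means correlated at -0.0756, -0.101, -0.00139 and -0.0530 between the organs of W11, W14, W15 and W3. Between different animals they correlated at -0.167 to 0.129, so the block took up little. Animals are the replicates, 1 library per tissue and animal.

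Transcript GC content was the median over the protein-coding transcripts of a gene in GENCODE vM21 (GRCm38), and its trend was removed per library by a local regression (span 0.5). Other alternatives were median-of-ratios scaling, a pseudocount of 0.1, a mean of at least 5 CPM, no block, the fifth jejunum library, no trend or robust option, and leaving out 1 or 2 animals. Folds are ratios of mean CPM, given where both means are at least 1 CPM. The members and the gene lists were chosen with earlier results of these data known. Named genes are list members, the 15 with the largest difference in each direction, the 15 highest per tissue, the 15 highest with an absolute difference under 0.25, and the 15 highest listed in 1 table only. Some genes are not reported here.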

Additional observations from a re-analysis of the deposited data

Results flagged for a closer look

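Among the named genes, 259 groups of 4 sham libraries were examined, including Cyp2b10 in liver, which was at 0 throughout and could not be flagged. In 17 of them (6.56%) the highest or lowest library stood apart from the other 3 by more than Dixon's 95% critical value for 4 samples. Chance flags about 1 group in 20. Of these libraries 8 were the jejunum of W3, and no other library had more than 4.

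In the W3 jejunum, Apoa4 was at 24342 CPM beside 10313 to 12288 CPM in the others, Apoc2 at 637 CPM beside 218 to 247 CPM, Scd1 at 53.9 CPM beside 2.8 to 4.6 CPM and Glul at 20.9 CPM beside 11.1 to 12.1 CPM. Genes that are abundant in liver were also high in that library, with Alb at 147 CPM beside 2.2 to 24.3 CPM, Mat1a at 9.6 CPM beside 0.2 to 1.3 CPM and Cdo1 at 5.7 CPM beside 0.5 to 1.3 CPM. Mlxipl was low there, at 123 CPM beside 181 to 186 CPM.

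In the W11 jejunum, Hmgcs1 was at 141 CPM beside 88.8 to 95 CPM, Sult1b1 at 1094 CPM beside 820.5 to 863 CPM, Cldn2 at 3.1 CPM beside 1.3 CPM in each other library and Pfkfb1 at 1.2 CPM beside 0.7 CPM in each other library. In the W14 jejunum, Tm6sf2 was at 733 CPM beside 336 to 387 CPM and Cyp2b10 at 904 CPM beside 531 to 554 CPM. Among the livers, Ehhadh was at 5120.4 CPM beside 956 to 1007 CPM and Plin2 at 424 CPM beside 112.5 to 163 CPM, both in W3, and Cfb was at 4.4 CPM beside 1.4 to 1.9 CPM in W11.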

How the results depend on the processing

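Removing the GC trend, an alternative chosen after seeing the data, lowered the genes higher in liver from 2306 to 1517 and those more than 2-fold higher from 1097 to 706. Among named genes that passed the test for any difference in either fit, it turned the sign of the log2 difference of Cyp3a11 (-0.34), Cyp3a25 (-1.70), Fasn (0.89), Otc (-0.96), Sar1b (-1.48), Sepp1 (-0.088), Slc2a2 (-1.41) and Ugt2b34 (-1.97), and among those that passed in neither fit that of Acaca (-0.074), Fabp1 (-0.91), Insr (-0.03) and Lpgat1 (-0.31). The median over all genes moved as well, from -0.45 to -0.82, so a turned sign can reflect this shift as well as the GC content of the gene. The cause was not tested. Acaca was -1.17 without W11 and W14, with the opposite sign to the fit of all 4 animals. The other counts stayed within 1.5 times. Without the animal block (no pairing) 2406 genes were higher in liver and 3828 in jejunum, and 1166 and 2440 by more than 2-fold, and no other call but that of A1cf moved among the named genes. Leaving out 1 animal at a time gave 1935 to 2123 and 3232 to 3687 genes, and 902 to 998 and 2022 to 2439 by more than 2-fold. Median-of-ratios scaling gave 2946 and 3298 genes, and 1493 and 2125 by more than 2-fold, with 47.2% in place of 38.1% of all calls higher in liver. By list, scaling gave 7 and 3 calls in place of 6 and 6 in cholesterol synthesis, 7 and 2 in place of 5 and 4 in bile acid genes, and left amino acid breakdown (11 and 1), glycolysis (1 and 11), fatty acid oxidation (15 and 6), respiratory chain (1 and 16) and lipoprotein assembly (4 and 11) leaning as reported. The fasted, weight-matched state was common to all 8 libraries, low values of the W11 and W14 livers are coarse at their depth, and genes missing from a table have no value there.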
